A study of Mus musculus with 2 samples.

Results

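Interferon gamma type macrophages are described here: myeloid cells with much RNA of the interferon-inducible genes Ly6i, Gbp2, Gbp5 and Slamf8. Single-cell RNA sequencing was done on 2 mouse libraries. Both carry the tissue label colon, and by genotype 1 is RUNX3 wt (WT below) and the other RUNX3 ko (knockout, the KO-labelled library below). Runx3 is a transcription factor of lymphoid and myeloid cells. The study made Runx3-deficient mice, set up tumours in them and asked how Runx3 bears on NK cell infiltration in colorectal cancer. The sources used here do not give the mouse strain, age, tumour model, fraction of tissue taken, part of Runx3 removed or number of animals behind each library. With 1 library a group there is no replicate check and no test, and each interval below covers counting error only.

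Cells were chosen by their RNA counts. Barcodes with at least 1000 UMIs (unique molecules counted) were kept, and counts were scaled to 10000 UMIs a cell (CP10K). Myeloid cells had at least 15 CP10K over Csf1r, C1qa, C1qb, C1qc and Cd68 and at most 1 UMI of Cd3d, Cd3e and Cd3g. The 5% with the highest sum of Rsad2, Ifit1, Ifit2 and Ifit3, genes of a type I interferon response, were left out. Of the remaining cells of both libraries, pooled, the 8% with the highest sum of Ly6i, Gbp2, Gbp5 and Slamf8 were taken as members. This gave 649 members, 442 from WT and 207 from the KO-labelled library, out of 8544 myeloid cells and 15373 deposited barcodes. The 427 left-out cells and the 7468 other myeloid cells served as references. The lowest score inside the limit was 9.32 CP10K and the highest outside it was 9.31, so the limit cuts a continuous range and is not a border between cell types. The median score was 13.9 in members and 0.932 in other myeloid cells of WT, and 14.4 and 0.441 in the KO-labelled library.

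Interferon gamma is made mainly by NK cells and T cells. It binds the receptor chains Ifngr1 and Ifngr2 on macrophages, and signals through the kinases Jak1 and Jak2. Genes with GAS elements answer first, among them Irf1, which together with other interferon regulatory factors acts on ISRE elements. Macrophages answer with guanylate-binding proteins and immunity-related GTPases, which attack vacuoles of intracellular microbes, with antigen presentation, and with the ligands of CXCR3, a chemokine receptor of activated T and NK cells. Type I interferons induce many of these genes as well, so the label names a programme and not a measured cytokine. The label's 6 markers lie at mm10 (GENCODE M21) chr3:142620602-142638008 (Gbp2), chr3:142493978-142522344 (Gbp5), chr15:74979534-74983430 (Ly6i), chr1:172581758-172590568 (Slamf8), chr5:92321347-92328079 (Cxcl9) and chr2:155751117-155755471 (Procr), and the files give 1 count per gene and cell.

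The 250 bases before the RefSeq start of the rule genes Gbp2, Gbp5 and Slamf8, and of 3 of the 4 genes outside the rule with the highest ratios, are printed because these genes set or lead the members' profile (GRCm38.p6, 5′ to 3′ on the gene's strand). Capitals mark matches to the ISRE-type motif GAAANNGAAA and to the GAS-type motif TTCNNNGAA, searched on both strands. The matches shown do not overlap one another. The RefSeq starts of Gbp2 and Gbp5 lie downstream of the GENCODE gene starts. The windows are chr3:142620413-142620662 (Gbp2, plus strand), chr3:142496684-142496933 (Gbp5, plus strand), chr1:172590569-172590818 (Slamf8, minus strand), chr5:92328080-92328329 (Cxcl9, minus strand), chr5:92348890-92349139 (Cxcl10, minus strand) and chr12:104235897-104236146 (Serpina3g, plus strand).
Gbp2: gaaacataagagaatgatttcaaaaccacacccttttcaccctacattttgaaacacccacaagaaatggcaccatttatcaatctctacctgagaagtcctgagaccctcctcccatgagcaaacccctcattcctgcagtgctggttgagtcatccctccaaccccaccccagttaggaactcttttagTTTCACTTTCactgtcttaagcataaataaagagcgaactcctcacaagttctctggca
Gbp5: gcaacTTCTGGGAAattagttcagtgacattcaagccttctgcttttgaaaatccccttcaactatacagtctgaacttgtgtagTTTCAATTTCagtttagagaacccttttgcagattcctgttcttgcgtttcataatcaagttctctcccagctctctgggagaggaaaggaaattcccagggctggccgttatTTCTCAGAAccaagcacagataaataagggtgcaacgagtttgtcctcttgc
Slamf8: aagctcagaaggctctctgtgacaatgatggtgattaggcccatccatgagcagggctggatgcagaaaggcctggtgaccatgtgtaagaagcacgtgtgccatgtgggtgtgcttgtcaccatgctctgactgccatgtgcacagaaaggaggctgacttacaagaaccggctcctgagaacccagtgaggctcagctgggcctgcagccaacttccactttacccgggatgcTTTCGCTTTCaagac
Cxcl9: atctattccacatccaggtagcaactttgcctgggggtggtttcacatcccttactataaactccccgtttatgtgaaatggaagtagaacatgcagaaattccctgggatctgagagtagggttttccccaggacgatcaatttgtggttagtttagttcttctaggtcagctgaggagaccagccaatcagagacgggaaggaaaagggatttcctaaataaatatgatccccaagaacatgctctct
Cxcl10: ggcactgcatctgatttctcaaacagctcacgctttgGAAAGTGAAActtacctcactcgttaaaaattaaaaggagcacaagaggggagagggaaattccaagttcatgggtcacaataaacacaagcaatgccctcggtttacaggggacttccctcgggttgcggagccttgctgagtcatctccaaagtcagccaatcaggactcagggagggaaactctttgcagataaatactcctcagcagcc
Serpina3g: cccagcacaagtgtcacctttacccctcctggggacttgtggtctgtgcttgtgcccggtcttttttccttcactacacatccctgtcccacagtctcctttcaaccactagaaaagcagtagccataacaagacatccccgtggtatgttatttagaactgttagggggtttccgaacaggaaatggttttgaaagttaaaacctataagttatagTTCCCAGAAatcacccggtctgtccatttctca
Matches begin 59 bases before the start in Gbp2 (ISRE), 15 in Slamf8 (ISRE), 213 in Cxcl10 (ISRE) and 33 in Serpina3g (GAS). Gbp5 holds GAS matches that begin 245 and 52 bases before the start and an ISRE match at 165. Neither motif is in the Cxcl9 window or in that of Procr. Over 300-base windows (250 before to 50 after the start), the ISRE motif occurs in 3.99% of the 27025 genes with a promoter in the table and the GAS motif in 9.55%. Of the 15 genes ranked highest in the members, described below, 10 have a promoter there, 3 with the GAS and 3 with the ISRE motif. Of the 10 ranked lowest, 8 have a promoter there, 0 with the GAS and 1 with the ISRE motif. A match describes letters in a window and was not tested as a binding site.

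Facts of the libraries bear on what follows. WT holds 8800 barcodes and the KO-labelled library 6573, with 85367638 and 62465176 UMIs. Members had a median of 9684 UMIs in WT and 11838 in the other library, against 9422.5 and 10835 in other myeloid cells, and mitochondrial RNA made up a median of 0.550% and 0.441% of the members' UMIs. The libraries share 17 barcode sequences, 2 of them among members. Levels are summed UMIs of a group of cells scaled to 1000000 (CPM). Runx3, the targeted gene, was at 260.2 CPM (95% Poisson interval 245 to 276) in WT members and at 189 CPM (173 to 207) in members of the KO-labelled library, where 155 of 207 members had a UMI of it. UMIs from outside the removed part cannot check the label, which is therefore kept as a label. By Y-linked genes and Xist, WT had 363 male-type members and 0 female-type (exact 95% binomial interval up to 0.831%). The KO-labelled library had 79 male-type, 83 female-type, 14 with both and 31 with no call. The KO-labelled library thus holds cells of more than 1 animal, and male-type values are given where they change a result between libraries.

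**Figure D1:**
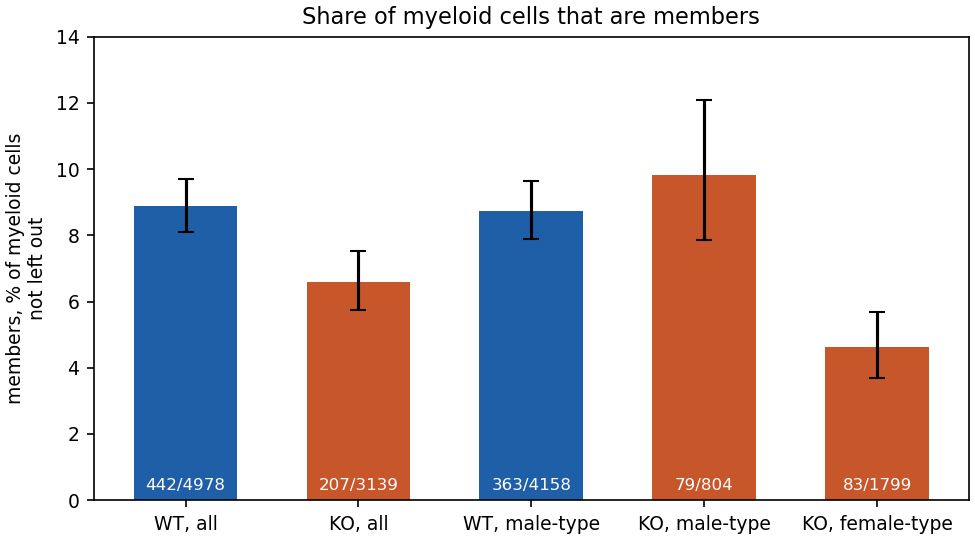
Bars give members as a percent of myeloid cells not left out, in each library and by sex type, with exact 95% binomial intervals and the cell counts in the bars. Over all cells the share is lower in the KO-labelled library (6.59%) than in WT (8.88%), while among male-type cells it is 9.83% against 8.73%.

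Members made up 8.88% of the myeloid cells not left out in WT (442 of 4978, exact Clopper-Pearson interval 8.10 to 9.70%) and 6.59% in the KO-labelled library (207 of 3139, 5.75 to 7.52%), a ratio of 0.743 (0.627 to 0.878). The direction turned among male-type cells: 8.73% in WT (363 of 4158) and 9.83% in the KO-labelled library (79 of 804), a ratio of 1.13 with an interval of 0.871 to 1.44 that spans 1. Within the KO-labelled library, 4.61% of female-type myeloid cells were members (83 of 1799, 3.69 to 5.69%), 0.470 times the male-type share (0.341 to 0.647). The sex type of the cells and the animal they came from cannot be told apart. The share of myeloid cells itself was close in both libraries, at 61.0% and 61.4% of barcodes with at least 1000 UMIs.

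The rule genes set the membership, so their values only describe it. Gbp2, a guanylate-binding protein, was at 980.2 CPM against 103 in WT and at 958 against 91.5 in the KO-labelled library (members against other myeloid cells). Gbp5, a guanylate-binding protein that promotes inflammasome assembly, was at 261 CPM against 26.3 in WT and at 345 against 35.9 in the KO-labelled library. Ly6i, a member of the Ly6 family of membrane-anchored proteins, was at 159 against 20.5 and at 151 against 16.1. Slamf8, an immune receptor of the SLAM family on macrophages, was at 189 against 38.1 and at 146 against 27.8. Gbp2 gave 61.7% of the members' rule UMIs in WT and 59.9% in the KO-labelled library. Members held a median of 14 and 16 rule UMIs, and 24 and 11 of them held at most 3. All 4 rule genes were found in 79 and 49 members, 3 of them in 202 and 89, 2 in 128 and 56, and only 1 in 33 and 13. The left-out cells carried the score too: 47 of 279 in WT (16.8%) and 36 of 148 in the KO-labelled library (24.3%) were at or above the members' limit.

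The label's markers that the rule did not use were also high in the members, although they come from the same cells. Cxcl9, a CXCR3 ligand induced strongly by interferon gamma, was at 3376 CPM (3322 to 3429.9) against 400.5 (395 to 406) in WT and at 3386 (3314 to 3459) against 459.8 (453 to 467) in the KO-labelled library. The ratio was 8.43-fold (8.25 to 8.61) and 7.36-fold (7.17 to 7.56). Cxcl9 was found in 90.0% and 89.4% of members and in 43.1% and 41.8% of other myeloid cells. In cells gated as T cells (at least 3 UMIs of the Cd3 genes), taken as a reference for free RNA, the share was 11.6% and 16.9%, at a median of 4448 and 5380 UMIs. Thinned to 1000 UMIs a cell, the shares became 75.1% and 76.8% in members, 17.4% and 18.2% in other myeloid cells and 3.75% and 4.18% in the T cell gate. Procr, the endothelial protein C receptor, was at 37.7 CPM (32.2 to 43.8) against 10.2 (9.29 to 11.1) in WT and at 72.1 (61.9 to 83.5) against 15.9 (14.6 to 17.2) in the KO-labelled library. Its RNA was sparse, with a UMI in 18.3% and 30.0% of members. The 10 macrophage markers summed to 11836 CPM in members and 11984 in other myeloid cells of WT, and to 11285 and 11531 in the KO-labelled library. They include Csf1r, C1qa, C1qb, C1qc and Cd68, the genes of the myeloid gate that both groups passed, so the sums are set in part by the gate. Of the 10, 6 had log2 ratios below 0 in both libraries and 2 above 0 in both. Over all 14474 genes, 6351 were below and 2929 above 0 in both. Among the 10 markers Mertk, an uptake receptor for dying cells, had log2 ratios of -0.71 and -0.98 and Fcgr1, a high-affinity Fc receptor, of 0.47 and 0.44.

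**Figure D2:**
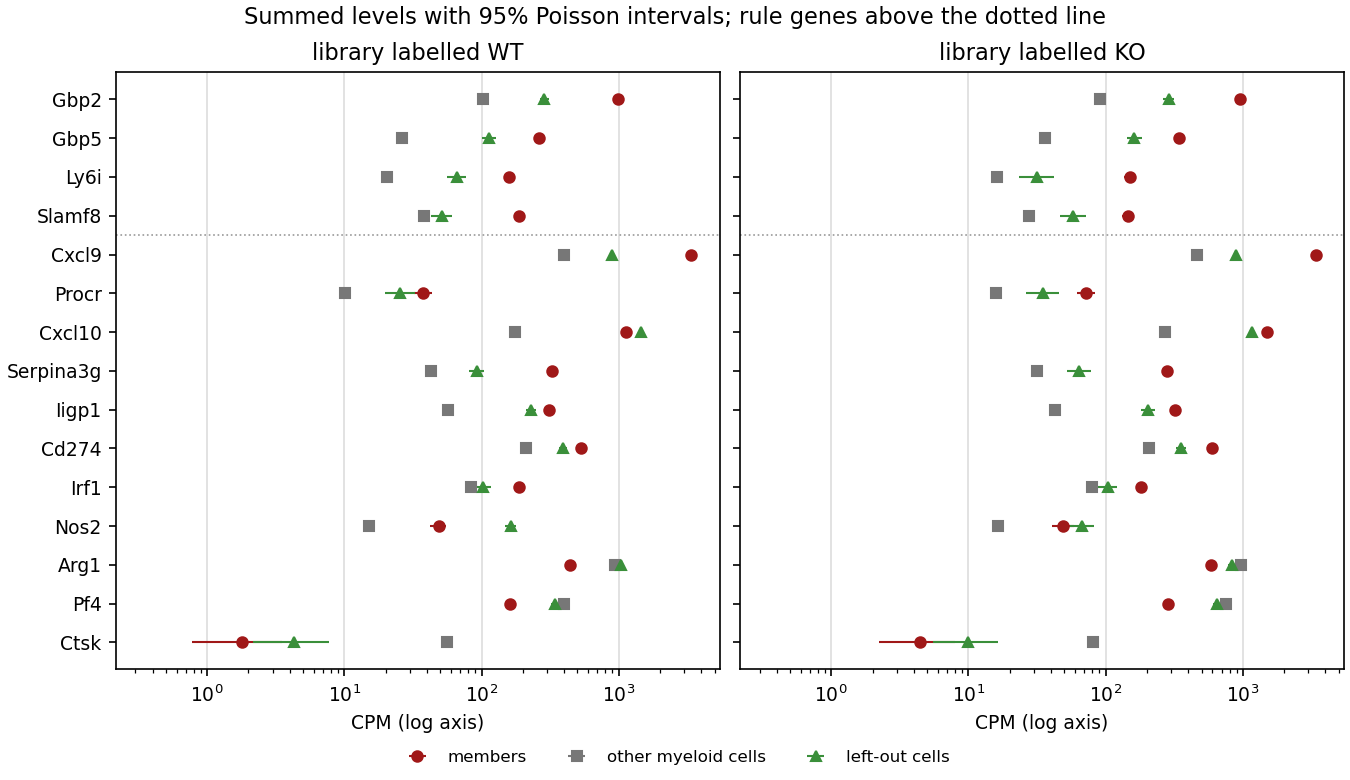
Points give the summed level in CPM on a log axis, with 95% Poisson intervals, for members, other myeloid cells and left-out cells, with 1 panel per library. Gbp2, Gbp5, Ly6i, Slamf8, Cxcl9, Procr, Cxcl10, Serpina3g, Iigp1, Cd274, Irf1 and Nos2 stand higher in members than in other myeloid cells in both panels, while Arg1, Pf4 and Ctsk stand lower.

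Across 14474 genes, 74 (0.511%) had a log2 ratio of members over other myeloid cells of at least 1 in both libraries, and 19 (0.131%) of -1 or less. All log2 ratios were taken after adding 5 CPM to both sides, which understates low genes. The contrast is the one that chose the members, so these counts describe them. The 15 highest after the rule genes held the 3 CXCR3 ligands Cxcl9, Cxcl10 and Cxcl11, the GTPases Iigp1, Gbp4, Ifi47 and Igtp, and the serine protease inhibitors Serpina3g and Serpina3f. The others were the transcription factor Batf2, the Ly6 protein Ly6a, the uridine phosphorylase Upp1, the calcium homeostasis modulator Calhm6, the actin-binding Cnn3 and the muscarinic receptor Chrm3. Cxcl10 was at 1134 CPM against 176 in WT and at 1497 against 269 in the KO-labelled library. Cxcl11 was at 51.3 against 4.26 and at 85.0 against 8.43. Serpina3g was at 327 against 42.8 and at 281 against 31.4, and Ly6a at 1388 against 433 and at 963 against 239.7. Upp1, which breaks down uridine, was at 86.7 against 19.3 and at 109.5 against 24.4. Chrm3 had a UMI in only 28 and 22 members. Serpina3g and Serpina3f, the Gbp genes and the Ly6 genes belong to families with near-identical copies, and the sources used here do not say how reads were shared among copies.

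The GTPase families were high in members. Of 9 guanylate-binding proteins outside the rule, 8 were measured (at least 20 UMIs over the cells compared). Of these, 6 passed a log2 ratio of 1 in both libraries and 8 of 8 were above 0 in both, as were 2929 of all 14474 genes, with a median of 1.44 and 1.54 (WT and KO-labelled), against -0.03 and -0.11 over all genes. Gbp3 was at 109 CPM against 32.7 in WT and at 115 against 31.1 in the KO-labelled library, and Gbp7 at 219 against 78.3 and at 214 against 70.6. Of 9 immunity-related GTPases, 6 passed and 9 were above 0 (median 1.56 and 1.88). Iigp1, which coats and breaks vacuoles of parasites, was at 310.1 CPM against 56.9 in WT and at 323 against 42.9 in the KO-labelled library. Irgm2, a GTPase of host membranes, was at 22.7 against 8.56 and at 18.5 against 7.95.

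The families of Ly6i and Slamf8 did not share 1 pattern. Of 5 measured Ly6 family genes outside the rule 2 passed a log2 ratio of 1 in both libraries, Ly6a and Ly6c1, the latter at 32.5 against 7.43 and at 22.96 against 6.84 CPM. Ly6e was at 1454 against 1069.7 and at 1369 against 879.6 CPM. Of 8 SLAM family genes 0 passed, with a median of -0.04 and -0.06. Slamf7, a receptor of macrophages and cytotoxic cells, was at 131 against 71.4 and at 137 against 68.6. Of 11 coagulation genes of the Procr pathway, 1 passed upward, Procr itself, and 1 downward, the coagulation factor gene F13a1, at 61.5 against 133 and at 62.0 against 220.4 (median -0.08 and -0.08).

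Signalling genes of the pathway differed among themselves, also at the same step. The receptor chain Ifngr1 was lower in members, at 154 CPM against 231 in WT and at 141 against 186 in the KO-labelled library, whereas Ifngr2 was at 111 against 111 and at 104 against 108. The kinase Jak1 was at 181 against 176 and at 158 against 165, and Jak2 at 222 against 161 and at 265 against 158. Irf1 was at 188 against 84.2 and at 182 against 79.9. Irf8, a factor of the monocyte and dendritic lineage, was at 514 against 227 and at 537 against 191. Of the 14 genes on this list 5 passed a log2 ratio of 1 in both libraries, among them Irf1, Irf8, Batf2 and the feedback inhibitor Socs1 (median 0.33 and 0.54). Socs1 was at 39.0 against 11.02 and at 42.7 against 11.2. Ifng itself, the cytokine gene, gave 4 UMIs over 2 WT members and 0 in the KO-labelled library, and 322 and 235 CPM in cells gated as T cells. Taken as a floor of 3 UMIs, the 0 allows up to 1.21 CPM.

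Chemokines for T and NK cells were high in members. Of the 8 genes on that list 5 passed in both libraries (median 1.33 and 1.70). Besides the CXCR3 ligands these were Ccl5, a chemokine that draws T cells, at 472 CPM against 161 in WT and at 734 against 207 in the KO-labelled library, and Ccl22, a ligand of CCR4, at 53.5 against 21.5 and at 117 against 35.4. In the KO-labelled library 2 cells gave 66.2% of the members' Ccl22 UMIs. Cxcl16, a ligand of CXCR6, was at 799.7 against 579 and at 795 against 546.

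Antigen presentation was higher across its lists by small amounts. For MHC class II, 10 of 10 genes were above 0 in both libraries and 0 passed a log2 ratio of 1 (median 0.25 and 0.58). Over all genes, 2929 of 14474 were above 0 in both. Ciita, the master regulator of class II genes, was at 184 CPM against 126 in WT and at 128 against 78.1 in the KO-labelled library. For MHC class I and peptide loading 15 of 15 were above 0 (median 0.43 and 0.55) and 1 passed, its regulator Nlrc5, at 129 against 58.5 and at 108 against 44.2. The peptide transporter Tap1 was at 239 against 130.3 and at 203 against 86.7. All 5 immunoproteasome subunits and activators were above 0 (median 0.68 and 0.74) and 0 passed.

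Effector enzymes split. Nos2, which makes nitric oxide, was at 48.6 CPM (42.4 to 55.5) against 15.2 (14.1 to 16.3) in WT and at 49.1 (40.8 to 58.7) against 16.5 (15.2 to 17.9) in the KO-labelled library, with a UMI in 63 of 442 and 36 of 207 members. Acod1, which makes itaconate, was at 246 against 76.6 and at 406 against 111, and Ass1, which rebuilds arginine from citrulline, at 211 against 91.2 and at 184 against 75.4. These were the 3 of 14 genes of the list past a log2 ratio of 1 in both libraries (median 0.20 and 0.30). Arg1, the arginase that competes with Nos2 for arginine, was lower in members, at 443 CPM (423 to 462) against 943 (934 to 951) in WT and at 582 (553 to 613) against 961 (951 to 971) in the KO-labelled library. The left-out cells had 163 and 67.5 CPM of Nos2. The tryptophan-degrading enzyme Ido1 gave 0 UMIs in WT members and 1 in the KO-labelled library.

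Surface ligands that act on T cells were among the higher genes. Cd274, which encodes PD-L1, the ligand of the inhibitory receptor PD-1, was at 533 CPM (511 to 554) against 211 (206 to 215) in WT and at 600.5 (570.4 to 632) against 208 (204 to 213) in the KO-labelled library. Cd40, a receptor for T cell help, was at 159 against 50.5 and at 211 against 59.7. They were the 2 of 11 checkpoint and costimulator genes past a log2 ratio of 1 in both libraries (median 0.24 and 0.14). The costimulators Cd80 and Cd86 had log2 ratios of 0.12 and 0.09 and of 0.09 and 0.12, and Vsir, an inhibitory ligand, of -0.66 and -0.65. Of 13 cytokine genes 2 passed (median 0.57 and 0.65), Il27, at 27.2 against 6.46 and at 31.4 against 6.503, and Il18bp, an inhibitor of IL-18 that interferon gamma induces, at 57.1 against 25.4 and at 48.7 against 19.5. Of 14 cell death and inflammasome genes 2 passed (median 0.50 and 0.33), the nucleic acid sensor Zbp1, at 173 against 61.3 and at 150.2 against 47.4, and the death receptor Fas, at 34.3 against 12.2 and at 35.8 against 14.5. Members over left-out cells gave other medians, 0.22 and 0.005 for the checkpoint and costimulator genes and -0.21 and -0.08 for the cytokine genes. For the cell death genes they were -0.05 and -0.18, and over all genes 0.11 and -0.001. In each of these 3 lists 0 genes passed upward in both libraries and 1 downward, against 27 and 105 of all 9351 genes.

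Type I interferon genes outside the rule were also higher in members than in other myeloid cells, with a median of 0.72 and 0.81. In both libraries 26 of 28 were above 0, as were 2929 of all 14474 genes, and 6 were past a log2 ratio of 1. The left-out cells served as a reference for these genes. Against them, 27 of 9351 genes (0.289%) were higher in members by a log2 ratio of at least 1 in both libraries and 105 (1.12%) lower. Of 29 type I genes 23 were lower, with a median of -1.64 and -1.58. The cut that set the left-out cells aside bears on these values. Cxcl9 was at 3376 CPM in members and 889.8 in left-out cells of WT, and at 3386 and 887 in the KO-labelled library. Cxcl10 was at 1134 and 1458, and at 1497 and 1159. The immunity-related GTPases had a median of -0.08 and -0.04 between the 2 kinds of cell.

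Resident-type and lipid-associated macrophage genes were mostly lower in members. Over all genes, 6351 of 14474 were below 0 in both libraries. Of 11 resident-type macrophage genes 9 were below 0 in both libraries, with a median of -0.46 and -0.97, and 1 passed a log2 ratio of -1, the chemokine Pf4, at 161 CPM against 398 in WT and at 285 against 757 in the KO-labelled library. The mannose receptor Mrc1 was at 455 against 774 and at 429 against 773. Of 12 lipid-associated macrophage genes 11 were below 0 in both (median -0.40 and -0.39), among them Spp1, which encodes osteopontin, at 244 against 532 and at 456 against 789. The lowest of all ranked genes were Ctsk and Acp5, a protease and a phosphatase of osteoclasts and some macrophages. Ctsk was at 1.78 CPM (0.770 to 3.51) against 56.5 (54.4 to 58.7) in WT and at 4.43 (2.21 to 7.93) against 80.6 (77.7 to 83.7) in the KO-labelled library. Acp5 was at 29.2 against 89.7 and at 27.4 against 102. The others among the 10 lowest were Cxcl3, Pf4, the heat shock genes Hspa1a and Hspa1b (near-identical copies between which reads may be split), Zdhhc14, Dhrs3, Nav2 and Fbxo32. Of 20 macrophage inflammatory genes 11 were below 0 in both libraries, near the share over all genes, and 1, Cxcl3, passed -1, while Tnf had log2 ratios of 0.57 and 0.68. Of 12 cell cycle genes 9 were below 0 in both, with a median of -0.19 and -0.70. The 15 monocyte genes had a median of 0.11 in both libraries. The 12 hypoxia genes had medians of -0.29 and 0.12, with 2 above 0 in WT and 9 in the KO-labelled library. Over all 14474 genes, 6415 were above 0 in WT and 4637 in the KO-labelled library.

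**Figure D3:**
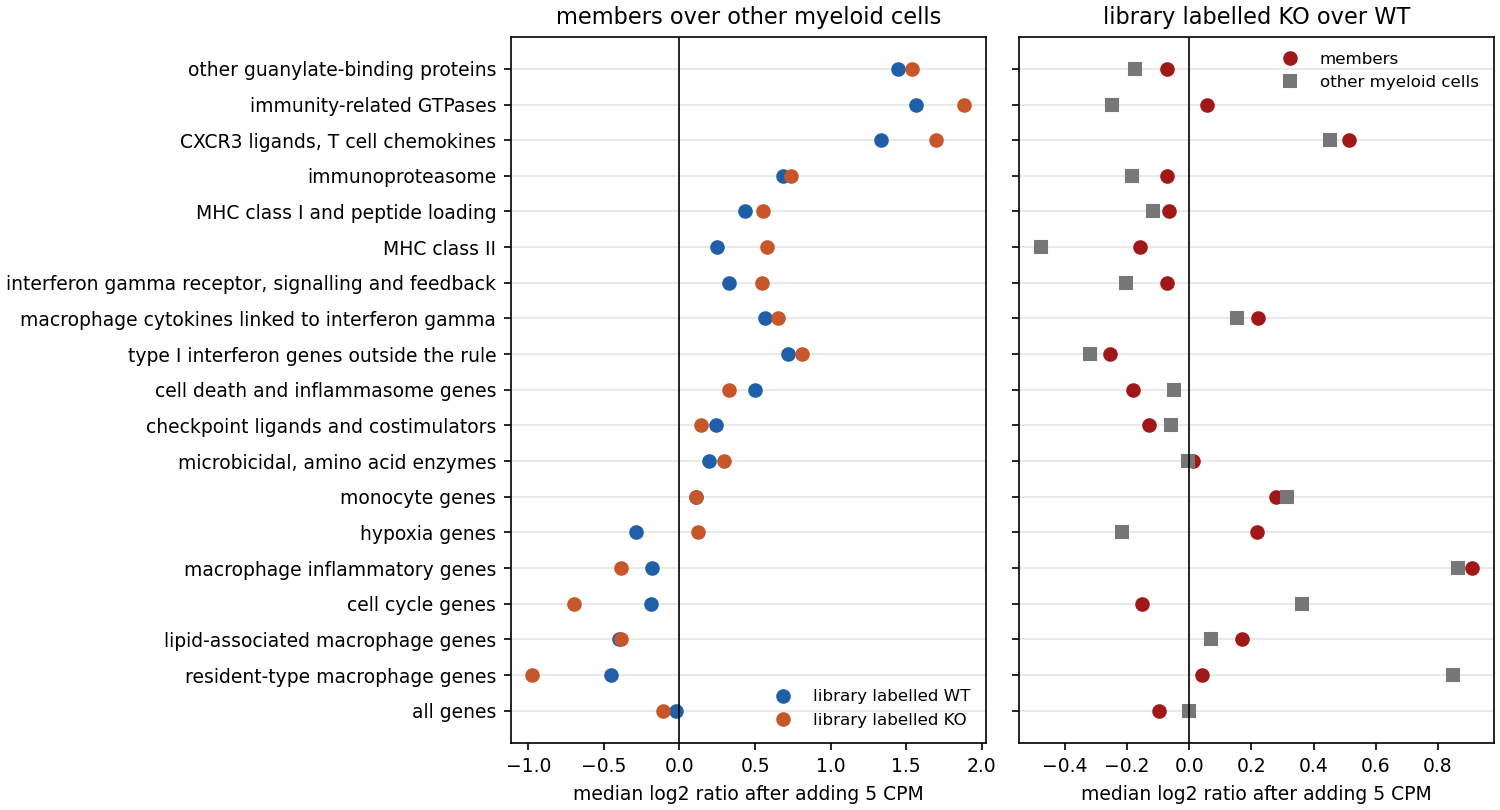
Points give the median log2 ratio of each gene list, on the left for members over other myeloid cells in each library and on the right for the KO-labelled library over WT in members and in other myeloid cells. The GTPase and chemokine lists stand between 1.33 and 1.88 on the left, all genes lie near 0, and the inflammatory list stands at 0.91 in members and 0.86 in other myeloid cells on the right.

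Cxcl9, Irf1 and Cd274, which are outside the rule, were higher in each bin of the score than in the bin before. For this, all myeloid cells not left out were put in a bin of score 0 and 5 bins of equal size, over both libraries, above it. Cxcl9 went from 107 CPM at score 0 through 167, 290.3, 438 and 1016 to 2885 in WT. In the KO-labelled library it went from 93.0 through 176, 335, 724 and 1229 to 2873. Irf1 went from 67.4 to 169 CPM in WT and from 55.7 to 166 in the KO-labelled library, and Cd274 from 164 to 474 and from 137 to 512. Arg1 went from 1189.7 to 493 CPM in WT and from 1049.8 to 726 in the KO-labelled library, and Pf4 from 549 to 163 and from 1069 to 296. Nos2 and Procr were uneven in WT, Nos2 at 14.2, 19.3, 9.79, 11.5, 19.3 and 41.4 CPM and Procr at 5.36, 10.7, 8.05, 8.83, 19.6 and 34.1. Summed MHC class II RNA started lower in the KO-labelled library, at 18106 CPM against 32260.4 in WT at score 0, and stood at 37521 and 41819 in the highest bin. Cells with no rule UMI were shallower (median 7755 and 8549 UMIs) than those of the lowest bin above 0 (12453.5 and 14337), and the part of depth in the order of these bins was not tested.

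**Figure D4:**
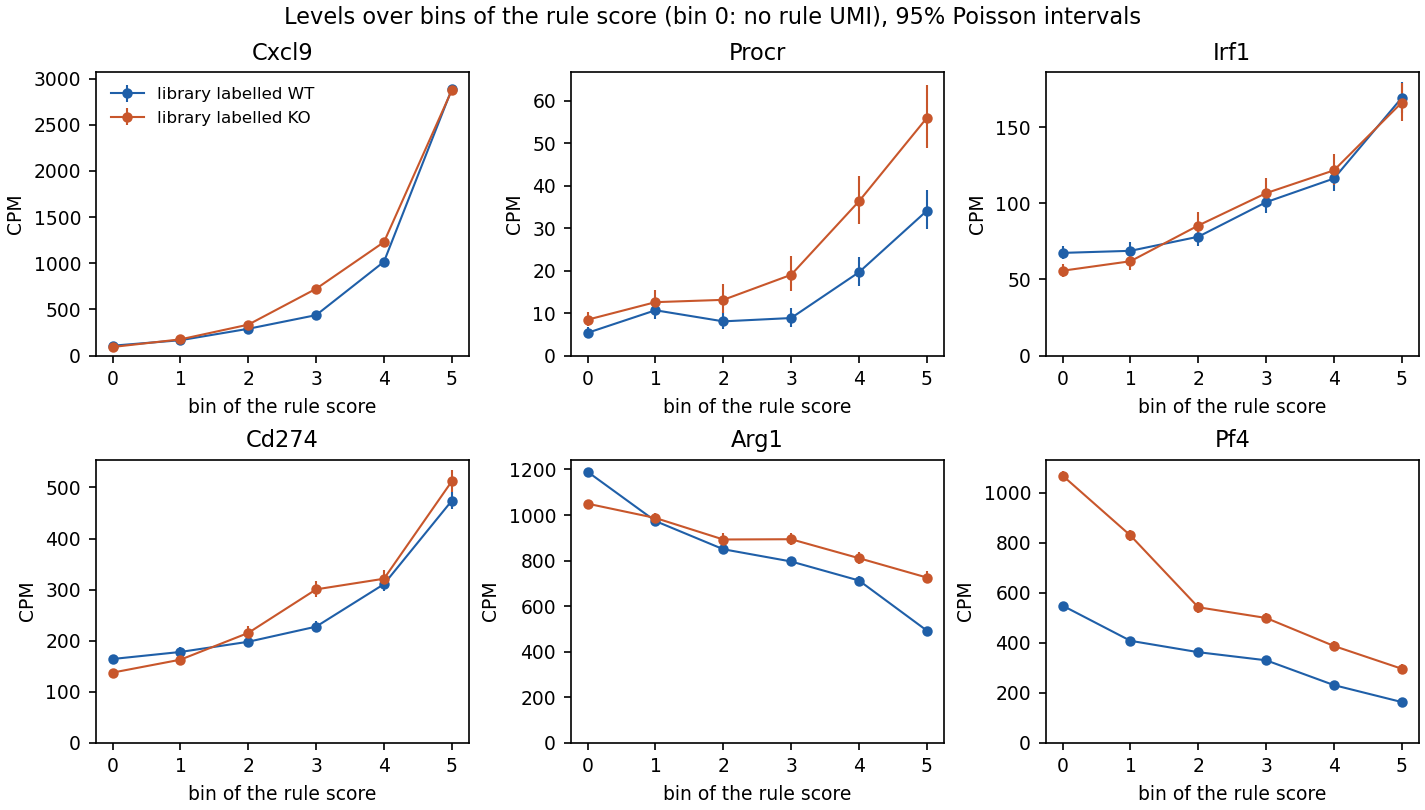
Points give CPM with 95% Poisson intervals over bins of the rule score, from no rule UMI (bin 0) to the highest scores (bin 5), for WT and the KO-labelled library. Cxcl9, Irf1 and Cd274 climb across the bins in both libraries, and Arg1 and Pf4 are lower in bin 5 than in bin 0.

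Members were not alike among themselves. Gbp2 had the most UMIs of the rule genes in 320 of 442 WT members (72.4%, 68.0 to 76.5%) and 143 of 207 in the KO-labelled library (69.1%, 62.3 to 75.3%). Gbp5 led in 46 and 27, Ly6i in 45 and 17 and Slamf8 in 7 and 3, with ties in 24 and 17. Levels were compared among the Gbp2-led, Gbp5-led and Ly6i-led, and the few Slamf8-led members were left out. Of these groups the Gbp2-led had the most Cxcl9, at 3635 CPM in WT and 3731 in the KO-labelled library. Gbp5-led members had more Cxcl10, at 2657 (2508 to 2812) CPM against 955 and at 3879 (3678 to 4089) against 1010.4 in the Gbp2-led (WT, then KO-labelled). Their Irf1 was at 374 (319.7 to 435) CPM against 163 and at 361 (301 to 429) against 149, and their Irf8 at 764 (685 to 849) CPM against 487 and at 714 (629 to 807) against 527. Nos2 was low in them, at 6.68 (1.38 to 19.5) CPM against 52.6 and at 13.995 (4.54 to 32.7) against 54.8. The mannose receptor Mrc1 was at 559 CPM against 469 and at 839.7 against 335.

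Ly6i-led members had more Ly6c2 and Plac8, monocyte genes that were chosen after their values were seen. The whole monocyte list was not counted in the Ly6i-led. Ly6c2, the classical monocyte marker, was at 806 (708 to 912) CPM against 75.0 and at 189 (129 to 266) against 39.5 in the Gbp2-led. Reads of Ly6i and Ly6c2 may be shared between these related genes, which was not tested. Plac8, a monocyte gene of another family, was at 968 (861 to 1084) CPM against 129 and at 437 (343 to 548) against 147. Ccl5 was at 1783 (1637 to 1939) CPM against 351 and at 1882 (1681 to 2100.1) against 735, and Il1b at 2920.3 CPM against 1543 and at 4631 against 2945. Itga4, an integrin of monocytes, was lower, at 305 CPM against 377 and at 224 against 334. Also lower in the Ly6i-led were Pf4, at 52.0 CPM against 162 and at 23.6 against 299, Spp1, at 35.7 CPM against 239.8 and at 177 against 469.8, and Iigp1, at 149 CPM against 296 and at 35.4 against 316. The Ly6i-led of WT were shallower, with a median of 6327 UMIs against 10284.5 in the Gbp2-led. In the KO-labelled library the medians were 11106 and 12378, over 17 and 143 cells.

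**Figure D5:**
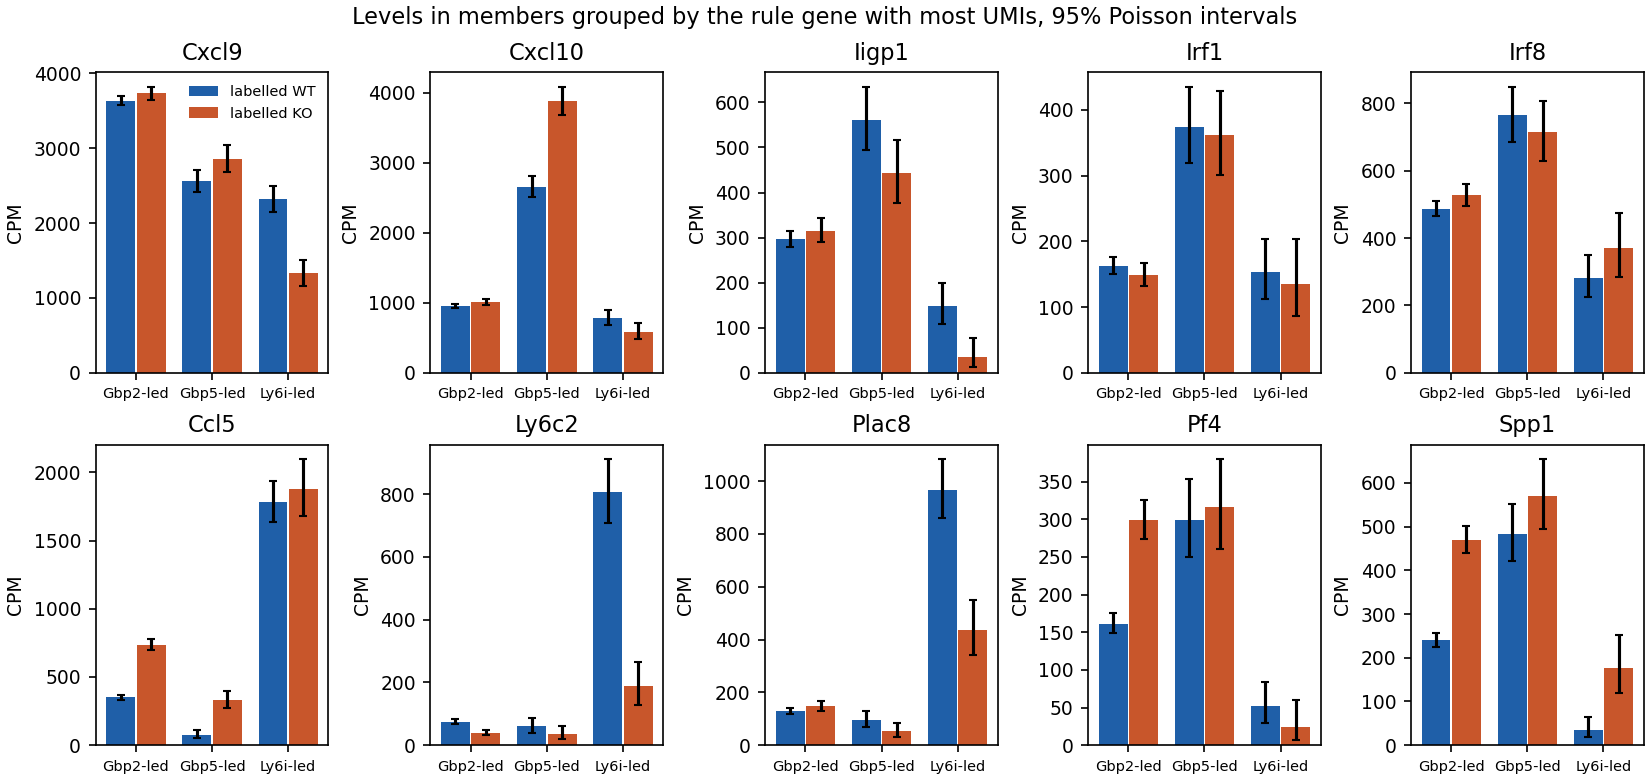
Bars give CPM of 10 genes in members grouped by the rule gene with the most UMIs (Gbp2, Gbp5 or Ly6i), with 95% Poisson intervals, for WT and the KO-labelled library. Among the groups shown, Cxcl10, Irf1 and Irf8 are highest in Gbp5-led members and Ly6c2, Plac8 and Ccl5 in Ly6i-led members in both libraries.

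Markers of other cell types were summed in the members. The 8 T cell markers summed to 23.9 CPM in WT members and 13.7 in those of the KO-labelled library (21.6 and 16.2 in other myeloid cells). Cd3d, Cd3e and Cd3g are among these markers, and the myeloid gate allowed at most 1 UMI of them, so selection holds the sums low in part. The 6 NK cell markers summed to 34.3 and 27.0 (73.9 and 40.3). The 5 mature dendritic cell markers, Ccl22 among them, were higher in members, at 89 CPM against 48.5 in WT and at 166 against 75.1 in the KO-labelled library. Ccl22, described above with the chemokines, made up most of the members' sums. In the KO-labelled library 2 cells gave most of its UMIs in members. The 6 fibroblast markers were at 433 against 102 and at 147 against 157, and the 6 neutrophil markers at 38.6 against 56.7 and at 234 against 161. Apart from results without the cells counted next, the part of such RNA was not tested. At least 2 UMIs of 6 dendritic cell genes were in 26 of 442 members (5.88%) and 20 of 207 (9.66%), against 4.23% and 5.59% of other myeloid cells. At least 3 UMIs of 7 mesenchymal genes were in 8 and 3 members, and at least 3 of the neutrophil genes S100a8 and S100a9 in 0 and 2.

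Members of the libraries were compared next. Of 10660 genes, 51 (0.478%) were higher in the KO-labelled library by a log2 ratio of at least 1 and 38 (0.356%) lower, and the median was -0.10. The split depends on the settings, with 63 higher and 25 lower after scaling by the median gene ratio and 60 and 60 without mitochondrial and the 50 most abundant genes. It was 104 higher and 260 lower with 1 CPM added, 43 and 87 without the barcodes of highest Scrublet (doublet) score, and 45 and 82 with 5% taken as members. In male-type cells alone, with the rule applied anew to them (73 members in the KO-labelled library), 70 genes were higher and 173 lower. The KO over WT fold was 1.00 for Cxcl9 (0.977 to 1.03), 0.970 for Irf1 (0.863 to 1.09), 1.13 for Cd274 (1.06 to 1.20), 1.32 for Cxcl10 (1.27 to 1.38) and 1.91 for Procr (1.54 to 2.38). Members of both libraries were cut at 1 limit on the pooled sum of the rule genes. Cxcl9, Cxcl10, Irf1, Cd274 and the GTPase lists climbed with that sum. The limit thus bears on their values between libraries, by an amount that was not tested. It sets the folds of the rule genes in part, so these support nothing. The rule genes' folds were 0.977 for Gbp2 (0.929 to 1.03), 1.32 for Gbp5 (1.21 to 1.45) and 0.773 for Slamf8 (0.682 to 0.876). Of the guanylate-binding proteins outside the rule 0 of 8 passed either way (median -0.07), of the immunity-related GTPases 0 of 9 (0.06), of MHC class II 0 of 10 (-0.16) and of MHC class I 0 of 15 (-0.06). Other lists leaned 1 way in members and in other myeloid cells alike. Of the 8 chemokines for T and NK cells 7 were above 0 and 1 passed upward (median 0.52, and 0.45 in other myeloid cells). Of the 13 cytokine genes 3 passed upward (0.22 and 0.15). Of 28 type I interferon genes 23 were below 0 and 0 passed (-0.25 and -0.32), against 3771 above and 6889 below 0 over all genes in members. Under alternative settings the chemokine median in members ranged from 0.02 to 0.61 and the log2 ratio of Cxcl10 from 0.04 to 0.55. By sex type, Cxcl9 in members was at 3366 CPM in male-type cells of WT and at 3479 and 3233 in male-type and female-type cells of the KO-labelled library. Other myeloid cells had 399.9, 716 and 306 CPM, so the types stood further apart there.

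Inflammatory genes were higher in members of the KO-labelled library and in its other myeloid cells alike. Of 17 measured in members 7 passed a log2 ratio of 1 and 0 passed -1, with a median of 0.91 in members and 0.86 in other myeloid cells. The cytokine gene Tnf was at 166 CPM (154 to 178) in WT members and 355 (332 to 379) in members of the KO-labelled library. Il1b, just under the limit, was at 1704 (1666 to 1743) and 3207 (3137 to 3278). The chemokine genes Ccl3 and Ccl4 were at 74.0 and 176 CPM and at 310.1 and 784 CPM, and the prostaglandin synthase gene Ptgs2 at 257 and 632. Inhba, a subunit of activin A, was at 14.7 and 58.8 CPM. In male-type members alone the log2 ratio was 0.95 for Tnf, 0.95 for Il1b and 0.80 for Inhba, against 1.69 for Inhba over all members. Immediate early and handling genes had a median of 0.41 in members and 0.37 in other myeloid cells, and their part in these values was not tested.

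Of the 10 highest and 10 lowest single genes between the libraries, several rest on few cells or on the sex type. Il12b, a subunit of IL-12, was at 18.7 CPM in 12 WT members and at 95.05 in 16 members of the KO-labelled library, where 2 cells gave 60.6% of its UMIs. Its log2 ratio of 2.08 was -1.53 in male-type members. S100a8, a neutrophil and monocyte gene, had a log2 ratio of 3.36, and 2 cells gave 93.3% of its UMIs in members of the KO-labelled library. Col3a1, a collagen gene of fibroblasts (-1.59), was at 364 CPM in 37 WT members, and 2 cells gave 45.0% of it. Without cells that hold mesenchymal RNA its ratio was 0.31. Edn1, the endothelin 1 gene, had 54.6% of its UMIs in the KO-labelled library from 2 cells. Also among the 10 highest were Inhba, Tnfsf9 (1.61), Cxcl3 (1.43), Fcrls (1.39), Mid1 (1.39) and Col14a1 (1.33). Tnfsf9, a costimulatory ligand, was at 17.4 CPM in 64 WT members and at 63.2 in 79 of the other library, with a ratio of 1.56 in male-type members. Fcrls and Cxcl3 came to 0.32 and 0.09 in male-type members.

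Lyz2, the macrophage lysozyme gene, was the lowest of the ranked genes between libraries. It was at 8108 CPM (8025 to 8192) in WT members, where 441 of 442 had a UMI, and at 2508 (2446 to 2571) in the KO-labelled library, where 175 of 207 had. Within that library it was at 189 CPM in male-type members and 5542 in female-type members. Other myeloid cells of that library had 139 and 6988, and male-type members of WT had 7909. Male-type members of the 2 libraries thus differed by a log2 ratio of -5.35. Runx3 did not follow that split, at 186 CPM in male-type and 198 in female-type members of the KO-labelled library. The next lowest, the chemokine gene Ccl17, was at 346 and 105 CPM in members of WT and of the KO-labelled library, with a UMI in 101 of 442 and 38 of 207. Its log2 ratio was -1.67 in members and -0.59 in other myeloid cells. Ly6c2 was at 132 and 54.4 CPM (-1.21). The others among the 10 lowest were Tagap1, Snapc1l, Kctd14, Asgr2, Efcab11 and Grap2, with log2 ratios between -1.67 and -1.23.

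The difference between libraries was itself compared between members and other myeloid cells. Of 10660 genes, 63 (0.591%) had KO over WT log2 ratios that differed by at least 1 between members and other myeloid cells. Resident-type macrophage genes had a median of 0.04 in members and 0.85 in other myeloid cells. Under alternative settings the median in members ranged from -0.88 to 0.49. The endocytic receptor Stab1 was at 76.0 and 70.9 CPM in members of WT and of the KO-labelled library, and at 123 and 226 in other myeloid cells. MHC class II genes had a median of -0.16 in members and -0.48 in other myeloid cells. No test stands behind these differences. Of the other myeloid cells of the KO-labelled library, 1716 of 2932 were female-type and 725 male-type.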

How the data were processed

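Single cells of 2 mouse libraries were profiled on a microwell chip with barcoded magnetic beads, per the labels' protocols. The authors deposited a matrix of raw UMI counts per library (55357 genes), made with Cell Ranger 8.0.1 per the file headers. The submitters' processing notes name mm10 and Seurat 3.

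Members were chosen by the rule in the report, and members and gene lists were chosen with earlier results of these data known. Raw counts were summed over the cells of a group and scaled to CPM. Log2 ratios were taken after adding 5 CPM, over genes with at least 20 UMIs in the cells compared. Exact 95% Poisson, Clopper-Pearson and conditional ratio intervals cover counting error only. With 1 library a group no p-value was computed. The ratio script was tested on simulated data.

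Named genes had at least 50 UMIs and a UMI in at least 5% of 1 group. For members over other myeloid cells the 15 highest and 10 lowest by the smaller of both libraries' log2 ratios, of 1 sign, were taken, and between libraries the 10 highest and 10 lowest. This ranking skipped genes with no proper name, those of the sex chromosomes used for the sex call, and mitochondrial, ribosomal, haemoglobin and antigen receptor genes. The rule also names 16 fixed genes and, from each list, abundant and differing members. Genes named for subsets led by a rule gene, and Chrm3, Irgm2, Ly6e, Slamf7 and Cxcl16 for their families or low counts, were picked after values were seen. A few genes that the rule names are not reported here.

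Sex type was called from 4 Y-linked genes and Xist: male-type cells had a Y-linked UMI and no Xist, female-type the reverse. Scrublet (scanpy 1.11.5) marked 0 and 2 barcodes as doublets and so did not work as a caller. No doublets were removed, and leaving out the 5% of barcodes with the highest scores was an alternative. In all, 22 alternatives were planned and 3 added. Promoter sequences came from RefSeq (GRCm38.p6) and gene positions from GENCODE M21. Python 3.11.15, numpy 2.4.6, scipy 1.17.1, pandas 2.3.3 and matplotlib 3.10.9 were used.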

Additional observations from a re-analysis of the deposited data

Results flagged for a closer look

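Collagen and matrix genes differed from other myeloid cells in opposite directions in the 2 libraries, a difference that was not tested. The log2 ratio of members over other myeloid cells was 1.04 in WT and -1.05 in the KO-labelled library for Col1a1, 0.63 and -0.58 for Col1a2, and 1.34 and -0.62 for Sparc. Cells with at least 3 UMIs of 7 mesenchymal genes were 8 of 442 and 3 of 207 members.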

How the results depend on the processing

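The KO over WT ratio of member shares (0.743) was 1.17 when the rule was applied to male-type cells alone and stayed below 1 under the other alternatives. In place of the 74 genes higher in members, 112 were counted with a pseudocount of 1 CPM, 45 with 20 CPM and 20 with the rule applied to cells thinned to 1000 UMIs, where ties took in 20.5% and 17.5% of cells as members. All 74 were among the 112, and all 45 and all 20 among the 74. Of 70 genes of 7 interferon gamma lists, 23 passed, against 15 with 20 CPM and 7 when thinned. The 89 genes apart by a log2 ratio of 1 between libraries within members became 364 with 1 CPM, 22 with 20 CPM, 28 with at least 200 UMIs, 55 when thinned and 243 in male-type cells. The 63 genes that differed between members and other myeloid cells became 359, 8, 10, 28 and 171 under the same settings, 134 without the 5% highest Scrublet scores, 106 with 5% taken as members, 99 without Gbp5 in the score and 37 without cells holding mesenchymal RNA. Gbp2 led 71.3% of members, 67.5% with log scores and 59.4% when thinned. Turns were counted for log2 ratios of at least 1 either way and for list medians more than 0.25 from 0. By that limit Col3a1 turned between libraries, at 0.30 without Gbp2 in the score, 0.58 in male-type cells and 0.31 without mesenchymal RNA. Il12b turned too, at -1.30 in male-type cells. The monocyte genes' median between libraries in members, 0.28 in the main setting, was -0.28 with 5% members and -0.0098 without neutrophil RNA. Smaller values between libraries in members also changed sign, among them those that follow. Medians ran from -0.88 to 0.49 for resident-type, -0.13 to 0.39 for hypoxia and -0.36 to 0.24 for cell cycle genes. The median of immunity-related GTPases ran from -0.26 to 0.15 and Nos2 from -0.49 to 0.45. The cause of these moves was not tested. Scaling by the median gene ratio shifted the median of all genes for members over others in the KO-labelled library by 0.107. Of the values of single named genes under alternatives, 294 moved and 4 reversed, against 1552 that did neither. The 3 settings without mesenchymal, dendritic or neutrophil RNA were chosen after seeing the data. No paired analysis was possible because each group holds 1 library. Depth limits low genes, since the members hold 4485632 and 2482947 UMIs in all.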

Other observations

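Ccl7, a chemokine for monocytes, and Mmp12, the macrophage elastase, were lower at the top of the rule score than at its bottom. From score 0 to the highest bin Ccl7 went from 561 to 274 CPM in WT and from 1129 to 542 in the KO-labelled library. Mmp12 went from 705 to 290.3 CPM and from 465.2 to 231. Hypoxia genes had a median log2 ratio between libraries of 0.22 in members and -0.22 in other myeloid cells, against -0.10 and 0.0008 over all genes. Under alternative settings the hypoxia median in members ranged from -0.13 to 0.39 and so changed sign. These values were not tested.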
